A study of Mus musculus with 6 samples.

Results

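The genes described here encode 8 enzymes that make or convert glutamine, glutamate, aspartate, asparagine, alanine and proline: *Asns*, *Glul*, *Glud1*, *Got1*, *Got2*, *Gpt2*, *Pycr1* and *Aldh18a1*. They were chosen by symbol from the gene names of the deposited tables, with earlier results of these data known. All 8 were found among the 35602 genes of the count table and among the 34714 genes of the single-library tables. CD4+ T cells, helper lymphocytes isolated from mouse spleen with a CD4 T cell kit, were stimulated through CD3 and CD28 and treated with MAPK13-IN-1, an inhibitor of the p38 family kinase encoded by *Mapk13*, or with its solvent DMSO, with 3 RNA-seq libraries in each group. The comparison asks which transcripts differ when this kinase is inhibited during T cell activation.

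DMSO-treated and MAPK13-IN-1-treated cells shared the stimulation of 72 h, and the inhibitor is given at 17.1 µM. The series' design text describes stimulation in the presence of the inhibitor throughout, whereas the labels of replicates 2 and 3 place the addition of inhibitor or DMSO after day 1. Cells of replicates 2 and 3 are labelled wild type, and the age of the animals is not given in the labels. Replicate 1 of each group was prepared with a stranded mRNA kit and is given as FPKM, a value scaled for gene length and library size. That unit was inferred from the values, and this pair of libraries has no replicate check. Replicates 2 and 3 of each group, prepared with poly-T beads, are given as read counts. Their totals were 26874805 for DMSO replicate 2, 28487403 for DMSO replicate 3, 33854760 for MAPK13-IN-1 replicate 2 and 32617702 for MAPK13-IN-1 replicate 3. Nothing in the labels says that the replicates came from separate cultures or animals, so the p-values measure only the spread between these libraries, which may be technical.

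Activated T cells take up glutamine in large amounts. Glutamine is converted to glutamate, and transaminases pass its nitrogen to oxaloacetate and pyruvate to form aspartate and alanine, while asparagine synthetase and the proline pathway draw on aspartate, glutamine and glutamate. Several of these enzymes belong to the set of genes that the transcription factor ATF4 is known to activate when amino acids are short.

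The CD4 T cell identity of the count libraries was examined with marker genes, as CPM, counts scaled to the library total. Of 10 CD4 T cell markers 7 were found, all of them expressed, with summed levels of 1600 and 1620 CPM in the DMSO libraries and 947 and 1060 CPM in the MAPK13-IN-1 libraries. *Cd5* had the most counts, here and below summed over the 4 count libraries, but with MAPK13-IN-1 *Cd4* exceeded it, at 280 and 294 CPM against 161 and 208 CPM. Of these 7 genes, 6 were lower with MAPK13-IN-1 at an adjusted p-value under 0.05 and 0 were higher. Of all 16269 genes tested, 32.3% were lower and 31.5% higher, which are the shares to set beside each count of markers. The CD4 T cell marker not called was *Cd4* itself, at 264 and 263 CPM in the DMSO libraries. Transcripts of B cells were abundant too. Of 12 B cell markers the 11 found summed to 1140 and 1110 CPM in DMSO and to 1490 and 1490 CPM with MAPK13-IN-1, and 8 were higher and 2 lower. With MAPK13-IN-1 *Pax5* was the most abundant of them, at 276 and 281 CPM. In the replicate 1 pair these B cell markers summed to 55.0 and 38.6 FPKM, against 1020 and 934 FPKM for the CD4 T cell markers. In bulk RNA, fewer cells of a type and less RNA per cell cannot be told apart.

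Markers of macrophages, dendritic cells and erythroid cells were low in DMSO-treated cells and higher with MAPK13-IN-1. The 12 macrophage markers summed to 13.2 and 11.6 CPM in DMSO and to 46.1 and 37.6 CPM with the inhibitor, with 7 of 8 tested genes higher and *Cd68* the most abundant. *C1qa*, *C1qc* and *Mertk* had 0 counts in both DMSO libraries. The 7 dendritic cell markers went from 18.4 and 18.6 CPM to 61.9 and 51.1 CPM, led by *Zbtb46*, with all 4 tested genes higher and *Cd209a* at 0 in every count library. The 8 erythroid markers went from 7.52 and 7.20 CPM to 94.4 and 67.1 CPM, led by *Hbb-bs*, with 6 of 7 tested genes higher. The 2 CD8 T cell markers, led by *Cd8b1*, summed to at most 11.2 CPM in any count library and both were lower, whereas in the replicate 1 pair they summed to 3.49 FPKM with DMSO and 8.39 FPKM with MAPK13-IN-1. The 7 neutrophil markers, led by *Mpo*, summed to at most 1.20 CPM, and the 4 NK cell markers, led by *Klrb1c*, to at most 0.502 CPM. The 7 stroma and endothelium markers, led by *Pecam1*, summed to 41.9 and 40.0 CPM in DMSO and 83.6 and 78.1 CPM with the inhibitor. Nearly all of this was *Pecam1*, at 38.2 and 35.2 CPM in DMSO and 79.1 and 73.0 CPM with the inhibitor, and of 4 tested genes of the list 1 was higher and 1, *Pdgfrb*, was lower. The replicate 1 pair went the other way, with 7.93 FPKM for this list in DMSO and 6.51 FPKM with the inhibitor. The part of these shifts in the results that follow was not tested.

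Of the 8 enzyme genes, all of which passed the filter on low counts, 7 differed between MAPK13-IN-1-treated and DMSO-treated cells at an adjusted p-value under 0.05, where 63.8% of the 16269 genes tested did. *Asns*, *Got1*, *Gpt2*, *Pycr1* and *Aldh18a1* were lower, 5 of 8 where 32.3% of all genes were lower, and *Glul* and *Glud1* were higher, 2 of 8 where 31.5% of all genes were. All 5 lower genes fell by more than 1 on the log2 scale, a size of fall that 10.4% of all genes tested passed. *Got2* was not called. The median log2 fold change was −1.40 over the 8 enzymes and 0.01 over all genes tested. Since the enzymes were chosen with earlier results of these data known, this contrast with all genes is a description and not a test. The groups did not overlap in 7 of the 8 genes, *Got2* being the exception, and in 83.0% of all genes tested. Adjusted p-values here and below come from edgeR's quasi-likelihood test across all genes with Benjamini-Hochberg adjustment, 2 libraries against 2.

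**Figure D1:**
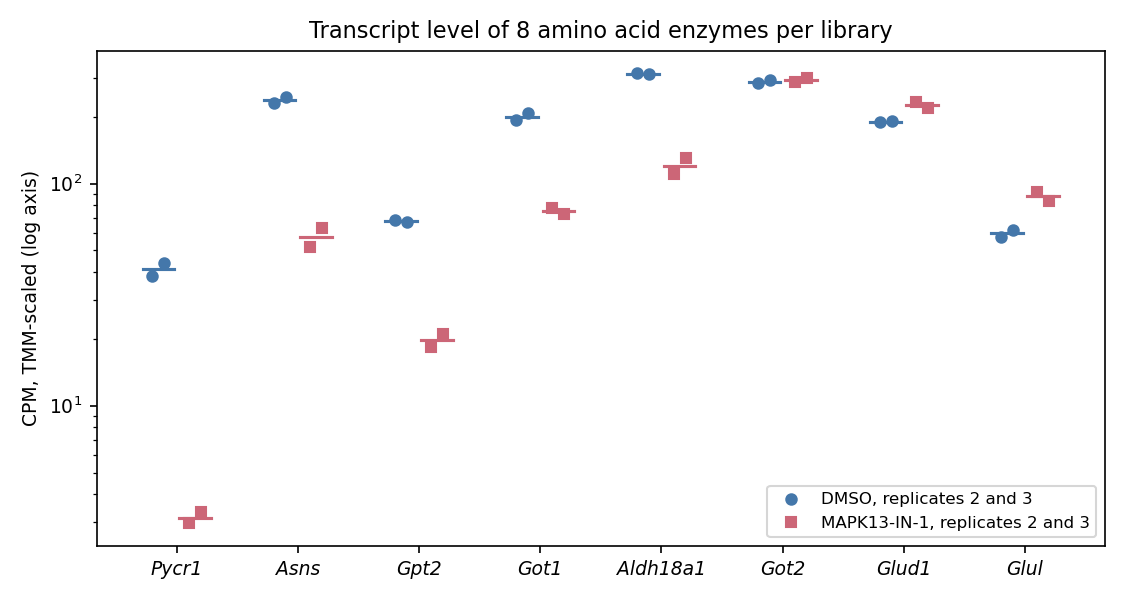
Level of each enzyme gene in each count library, as CPM scaled by TMM on a log axis. Circles are DMSO libraries, squares are MAPK13-IN-1 libraries and short lines are group means of 2 libraries. The MAPK13-IN-1 libraries lie below the DMSO libraries for *Pycr1*, *Asns*, *Gpt2*, *Got1* and *Aldh18a1*, overlap with them for *Got2*, and lie above them for *Glud1* and *Glul*.

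*Asns* encodes asparagine synthetase, which transfers the amide nitrogen of glutamine to aspartate. From here on, CPM values of single genes are scaled by TMM, a factor per library that corrects for differences in composition. *Asns* stood at 231 and 245 CPM in DMSO replicates 2 and 3 and at 51.8 and 63.2 CPM in MAPK13-IN-1 replicates 2 and 3. Both inhibitor libraries lay far below both DMSO libraries, with means of 238 ± 10.3 and 57.5 ± 8.08 CPM (SD, n = 2). The transcript was thus 4.14-fold lower, with a log2 fold change of −2.05 (SE 0.0883, adjusted p = 5.34e-08 from edgeR with Benjamini-Hochberg adjustment). The replicate 1 libraries had *Asns* at 112 FPKM with DMSO and at 24.1 FPKM with MAPK13-IN-1, a log2 ratio of −2.17 on the scale of log2(FPKM + 1), which understates the change of low genes. Only 0.0861% of the 10448 genes at 1 FPKM or more in both of these libraries had a lower ratio.

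*Glul* encodes glutamine synthetase, which joins ammonia to glutamate. Its level was 57.6 and 61.9 CPM in the DMSO libraries and 91.7 and 83.5 CPM in the MAPK13-IN-1 libraries, so every inhibitor library was above every DMSO library. The rise was 1.47-fold (log2 fold change 0.55, SE 0.0739, adjusted p = 8.89e-05 from edgeR with Benjamini-Hochberg adjustment). The replicate 1 libraries also had more *Glul*, 19.5 FPKM against 12.3 FPKM. The cells had been isolated as CD4 T cells. In the same count libraries the summed markers of B cells, macrophages, dendritic cells and erythroid cells, given above, were among those that rose. In the replicate 1 pair the macrophage markers summed to 3.03 FPKM with DMSO and 9.67 FPKM with MAPK13-IN-1. Dendritic cell markers summed there to 3.36 and 14.6 FPKM and erythroid markers to 0.931 and 1.94 FPKM. B cell markers were lower in the pair, at 55.0 and 38.6 FPKM. The part of these markers in the rise of *Glul* was not tested.

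*Glud1* encodes mitochondrial glutamate dehydrogenase, which releases ammonia from glutamate to give α-ketoglutarate. Its values of 189 and 191 CPM in DMSO and 232 and 219 CPM with MAPK13-IN-1 did not overlap, but the rise was small, 1.18-fold (log2 fold change 0.24, SE 0.0563, adjusted p = 0.00324 from edgeR with Benjamini-Hochberg adjustment). Without DMSO replicate 2 the log2 fold change was 0.22 and was no longer called (adjusted p = 0.058 from edgeR with Benjamini-Hochberg adjustment), while over all alternatives the adjusted p ranged from 2.24e-08 to 0.058. The replicate 1 pair moved the same way, from 73.4 to 116 FPKM.

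The aspartate transaminases exchange the amino group of glutamate with oxaloacetate, *Got1* in the cytosol and *Got2* in mitochondria. *Got1* was at 194 and 207 CPM in the DMSO libraries and at 77.4 and 73.0 CPM in the MAPK13-IN-1 libraries. This is a 2.67-fold fall with no overlap between groups (log2 fold change −1.42, SE 0.0639, adjusted p = 7.37e-08 from edgeR with Benjamini-Hochberg adjustment). *Got2*, in contrast, was at 283 and 292 CPM in DMSO and at 286 and 299 CPM with MAPK13-IN-1, values that interleave. Its log2 fold change was 0.02, with a 95% confidence interval of −0.0954 to 0.142 (adjusted p = 0.721 from edgeR with Benjamini-Hochberg adjustment). The sign of this value depended on the library left out, at −0.01 without DMSO replicate 2 and −0.02 without MAPK13-IN-1 replicate 3. Scaling by library totals raised the median log2 fold change of all genes by 0.125, and *Got2* with it to 0.15 (adjusted p = 0.0285 from edgeR with Benjamini-Hochberg adjustment, in a range of 0.0285 to 0.936 over all alternatives). In the replicate 1 pair *Got1* went from 95.0 to 53.8 FPKM and *Got2* from 94.3 to 69.0 FPKM, so that both were lower there.

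*Gpt2*, the mitochondrial alanine transaminase, uses glutamate and pyruvate to form alanine and α-ketoglutarate. It was at 68.4 and 67.5 CPM in the DMSO libraries and at 18.3 and 21.1 CPM in the MAPK13-IN-1 libraries. The groups were well apart, and the fall was 3.45-fold (log2 fold change −1.79, SE 0.0882, adjusted p = 1.21e-07 from edgeR with Benjamini-Hochberg adjustment). The replicate 1 libraries had 9.0 FPKM with DMSO and 2.16 FPKM with MAPK13-IN-1, a log2 ratio of −1.66. Its cytosolic counterpart *Gpt* had a log2 fold change of 0.11 and was not called (95% confidence interval −0.268 to 0.478). *Gpt* is named because it is the counterpart, after its values were seen.

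Proline is made from glutamate in mitochondria. *Aldh18a1* encodes the synthase of the first step, which phosphorylates and reduces glutamate, and *Pycr1* encodes the reductase of the last step. *Aldh18a1* was at 314 and 310 CPM in DMSO and at 110 and 130 CPM with MAPK13-IN-1, a 2.61-fold fall (log2 fold change −1.38, SE 0.0753, adjusted p = 2.07e-07 from edgeR with Benjamini-Hochberg adjustment). *Pycr1* was at 38.5 and 43.8 CPM in DMSO and at 2.96 and 3.31 CPM with MAPK13-IN-1, from 992 and 1191 counts to 105 and 112 counts. It had the largest fall of the 8 genes, 13.1-fold (log2 fold change −3.72, SE 0.126, adjusted p = 1.52e-08 from edgeR with Benjamini-Hochberg adjustment). Only 0.338% of all genes tested had a lower log2 fold change. Both also fell in the values of the replicate 1 libraries, *Aldh18a1* from 56.9 to 20.8 FPKM and *Pycr1* from 11.0 to 1.96 FPKM.

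**Figure D2:**
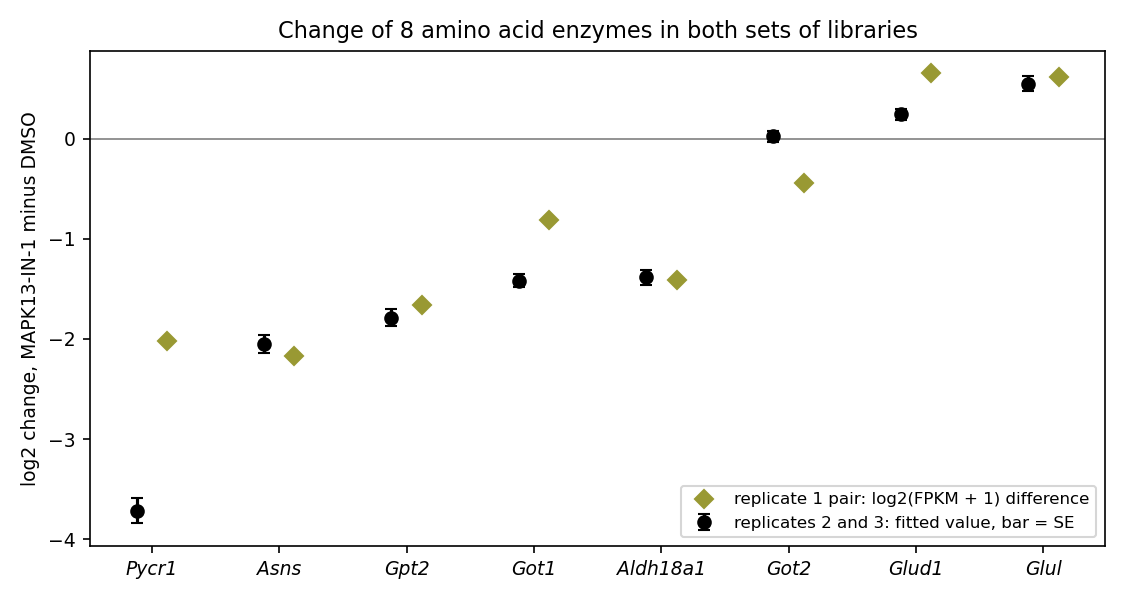
Log2 change of each enzyme gene with MAPK13-IN-1. Black points are fitted log2 fold changes over replicates 2 and 3, with bars of 1 SE, and diamonds are differences of log2(FPKM + 1) in the replicate 1 pair, which has no error. From *Pycr1* at −3.72 to *Glul* at 0.55 in the count libraries, *Got2* is the gene whose values lie on opposite sides of 0.

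The direction was the same in the replicate 1 pair as in the count libraries for 7 of the 8 genes, all but *Got2*. For comparison, among genes at 1 FPKM or more in the pair, 59.3% of the 4344 genes called lower were lower there and 72.4% of the 2890 genes called higher were higher there. The median log2 ratio of the 8 enzymes in the pair was −1.11, and that of the 10448 genes at 1 FPKM or more was 0.05.

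Levels were compared between genes per length, as TMM-scaled CPM per kilobase of annotated exon. In DMSO-treated cells *Got2* at 114 ± 2.34 and *Asns* at 110 ± 4.79 were at the top (SD, n = 2), and their libraries overlapped. *Got1* followed at 97.6 ± 4.45, *Aldh18a1* at 88.5 ± 0.712 and *Glud1* at 56.1 ± 0.471. *Glul* at 21.4 ± 1.09, *Gpt2* at 18.7 ± 0.182 and *Pycr1* at 10.9 ± 0.999 were lowest, and apart from *Got2* and *Asns* no neighbours in this order overlapped. With MAPK13-IN-1 the order changed. *Got2* stayed first at 115 ± 3.57, *Glud1* moved to second at 66.5 ± 2.75, and *Got1* at 36.5 ± 1.51, *Aldh18a1* at 33.9 ± 3.96 and *Glul* at 31.4 ± 2.05 followed, with libraries of *Aldh18a1* overlapping those of both *Got1* and *Glul*. *Asns* dropped from second to sixth at 26.6 ± 3.74, ahead of *Gpt2* at 5.42 ± 0.541 and *Pycr1* at 0.831 ± 0.0651. By FPKM, which is also per length, *Asns* was first with DMSO at 112 FPKM and *Glud1* was first with MAPK13-IN-1 at 116 FPKM.

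Ratios of counts between paired genes of the same library do not depend on how libraries are scaled. The counts of *Got1* per count of *Got2* were 0.686 and 0.711 in the DMSO libraries and 0.271 and 0.244 in the MAPK13-IN-1 libraries, a log2 difference of −1.44 between group means. The ratio of FPKM in replicate 1 went from 1.01 to 0.779. Relative to *Glud1*, *Gpt2* went from 0.362 and 0.353 to 0.0790 and 0.0965, a log2 difference of −2.03. Relative to *Asrgl1*, an asparaginase, *Asns* went from 10.3 and 11.0 to 3.18 and 2.94, a log2 difference of −1.80. Cytosolic *Mdh1* relative to mitochondrial *Mdh2* moved up, from 0.469 and 0.444 to 1.00 and 0.872, a log2 difference of 1.03, but in the replicate 1 pair only from 0.305 to 0.349. In each of these 4 ratios the groups did not overlap. The two-sided exact permutation test gave p = 0.333 for each (0.333 after Benjamini-Hochberg adjustment over the 6 ratios computed), which is the smallest value that 2 libraries against 2 allow.

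The enzymes around these 8 genes moved in both directions. Over 78 further genes of glutamine, glutamate, aspartate, asparagine and proline metabolism and transport, 64 were tested, of which 29 were lower and 14 higher, where 32.3% of all genes tested were lower and 31.5% higher. Their median log2 fold change was −0.22, and −0.09 with libraries scaled by totals. In glutaminolysis and glutamate metabolism, 8 of 15 tested genes were lower and 3 higher (median −0.39). The genes with the deepest falls in this list were transaminases that use glutamate, and *Nags*. *Psat1*, of serine synthesis, went from 483 ± 13.7 to 206 ± 14.5 CPM (SD, n = 2, log2 fold change −1.23), and from 214 to 67.4 FPKM in the replicate 1 pair. The branched-chain transaminases *Bcat1* and *Bcat2* had log2 fold changes of −1.09 and −1.14. In the replicate 1 pair *Bcat1* went from 11.3 to 4.26 FPKM, but *Bcat2* only from 25.0 to 21.6 FPKM. Of the 10 genes of this list at 1 FPKM or more in the pair, 6 were lower there, and their median log2 ratio was −0.106. *Nags*, of the urea cycle, was low throughout, at 37, 67, 20 and 23 counts.

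Enzymes that take the amide nitrogen of glutamine or charge its tRNA, *Asns* left out, had 5 of 10 genes lower and 2 higher (median −0.32). The number lower was 3 with libraries scaled by totals or with DESeq2, and 4 in the other refits of all 4 count libraries. It also moved with 1 library left out. None of the 10 genes passed a change of 1 on the log2 scale. In aspartate and asparagine metabolism 4 of 10 tested genes were lower and 3 higher (median −0.18, and −0.05 with libraries scaled by totals). Of the 8 genes of this list at 1 FPKM or more in the replicate 1 pair, 4 were lower there, and their median log2 ratio was 0.075. *Nars*, the asparaginyl-tRNA synthetase, was lower, at 518 ± 6.93 CPM in DMSO and 236 ± 15.6 CPM with MAPK13-IN-1 (log2 fold change −1.14), and went from 162 to 57.2 FPKM in the replicate 1 pair. *Adssl1*, an adenylosuccinate synthase that uses aspartate, and *Nat8l*, which makes N-acetylaspartate, were higher, with log2 fold changes of 1.40 and 2.61. *Nat8l* had only 18, 9, 113 and 104 counts. *Asrgl1* had a log2 fold change of −0.25 and was not called (adjusted p = 0.121 from edgeR with Benjamini-Hochberg adjustment), but without MAPK13-IN-1 replicate 3 it was −0.47 and called (adjusted p = 7.26e-05 from the same edgeR test, in a range of 7.26e-05 to 0.649). Without MAPK13-IN-1 replicate 2 it was −0.06 and not called, so its value hangs on which inhibitor library is kept.

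The malate-aspartate shuttle carries reducing equivalents into mitochondria through *Got1*, *Got2*, the malate dehydrogenases and a pair of carriers. Of its 5 other genes, 4 were lower and 1 was higher (median −0.78, and −0.65 with libraries scaled by totals). With libraries scaled by totals or with DESeq2, 3 were lower. *Mdh2* went from 273 ± 0.752 to 157 ± 12.4 CPM (SD, n = 2, log2 fold change −0.80), and the malate carrier *Slc25a11* from 74.0 ± 2.38 to 31.0 ± 2.60 CPM (log2 fold change −1.26). *Mdh1* was the higher one, from 125 ± 4.48 to 147 ± 2.62 CPM (log2 fold change 0.23), and was not called without DMSO replicate 3 (0.19, adjusted p = 0.138 from edgeR with Benjamini-Hochberg adjustment, in a range of 1.2e-05 to 0.138). The replicate 1 pair differed from this in part. There *Mdh2* was at 164 and 157 FPKM and *Slc25a11* at 28.9 and 32.1 FPKM, while *Slc25a12*, an aspartate and glutamate carrier named after its values were seen, went from 35.7 to 25.2 FPKM and was lower in the count libraries too (log2 fold change −0.78). In the pair, the median log2 ratio of these 5 genes was 0.13.

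In proline and ornithine metabolism beyond *Pycr1* and *Aldh18a1*, 4 of 11 tested genes were lower and 1 was higher. Their median of −0.04 became 0.09 with libraries scaled by totals, a scaling that moved the median of all genes tested from 0.01 to 0.137. Of the 7 genes of this list at 1 FPKM or more in the replicate 1 pair, 2 were lower there, and their median log2 ratio was 0.257. Neither number was stable. With libraries scaled by totals 3 were lower and 3 higher, and with no filter on low counts 5 were lower and 2 higher. Both numbers also moved with 1 library left out. *Prodh*, which oxidizes proline, had 87, 115, 109 and 148 counts, and *Oat*, which links ornithine to the same intermediate, was at 90.6 ± 1.19 and 92.8 ± 1.28 CPM (SD, n = 2). Neither was called, with 95% confidence intervals of the log2 fold change of −0.536 to 0.466 for *Prodh* and −0.101 to 0.169 for *Oat*, and *Oat* was called only with libraries scaled by totals (0.16, adjusted p = 0.0432 from edgeR with Benjamini-Hochberg adjustment, in a range of 0.0432 to 0.941).

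Of the carriers for these amino acids, 5 of 14 tested genes were lower and 4 higher (median −0.14), while with libraries scaled by totals 3 were lower and the median was −0.01, and without DMSO replicate 2 only 2 were higher. The neutral amino acid exchangers *Slc1a5*, which carries glutamine, and *Slc1a4* had the deepest falls. *Slc1a5* went from 591 ± 26.6 to 231 ± 5.86 CPM (SD, n = 2, log2 fold change −1.36) and from 211 to 116 FPKM in the replicate 1 pair, and *Slc1a4* from 93.1 ± 1.14 to 23.7 ± 1.98 CPM (log2 fold change −1.97) and from 12.2 to 3.78 FPKM. The glutamine carrier *Slc38a1* was lower by less (log2 fold change −0.35), and *Slc38a2* had 186 ± 5.67 and 186 ± 18.3 CPM and was not called. *Slc1a1*, a glutamate and aspartate carrier, was higher from a low level, with 32, 21, 145 and 118 counts.

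**Figure D3:**
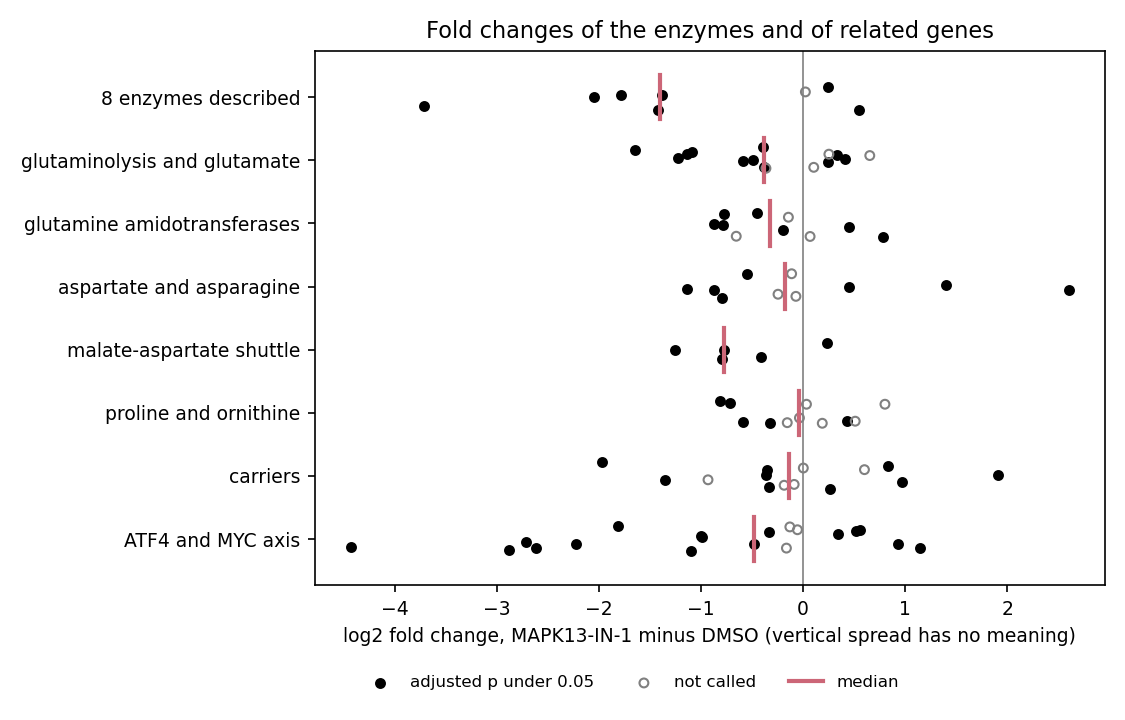
Log2 fold change with MAPK13-IN-1 of the 8 enzymes and of the tested genes of each related list, the 8 enzymes left out of the other lists. Filled points are genes with an adjusted p-value under 0.05, open points are genes not called, and red lines are medians. The median of the 8 enzymes is −1.40, and those of the other lists lie between −0.78 and −0.04, the latter, of proline and ornithine genes, becoming 0.09 with libraries scaled by totals. That scaling moved the median of all genes tested from 0.01 to 0.137.

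Transcripts of the ATF4 pathway and of MYC, which is known to drive glutamine use in activated T cells, were examined beside the enzymes. Of 19 tested genes, 11 were lower and 5 higher (median −0.48), beside 32.3% lower and 31.5% higher among all genes tested. *Atf4* itself was at 546 ± 4.31 CPM in DMSO and 275 ± 15.1 CPM with MAPK13-IN-1 (SD, n = 2), a log2 fold change of −0.99 (SE 0.0555, adjusted p = 2.5e-07 from edgeR with Benjamini-Hochberg adjustment), and went from 249 to 118 FPKM in the replicate 1 pair. Of the genes in this list known as targets or partners of ATF4, 7 fell by more than 1 on the log2 scale. *Nupr1* had a log2 fold change of −4.43, *Chac1* of −2.88, *Atf5* of −2.72, *Trib3* of −2.61, *Cebpb* of −2.22, *Ddit3* of −1.81 and *Cebpg* of −1.09. All 7 were lower in the replicate 1 pair as well, with log2 ratios from −2.56 to −0.97. Other known targets, named after their values were seen, moved little or differently. *Sesn2* and *Ddit4* had log2 fold changes of −0.48 and −0.34 but log2 ratios of 0.118 and 0.476 in the pair, and *Ppp1r15a*, at −0.05, was not called and had a ratio of 0.324. *Eif2ak3*, a kinase that acts upstream of ATF4, was higher (log2 fold change 1.15). *Myc* was lower in the count libraries, from 280 ± 21.6 to 140 ± 10.5 CPM (95% confidence interval of the log2 fold change −1.16 to −0.842). Its replicate 1 values went the other way, from 55.0 to 73.7 FPKM. The median log2 ratio of the 19 genes in that pair was 0.12.

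The promoter windows of the 8 genes, several of which are known ATF4 targets, were searched for 3 motifs on both strands. All 8 genes were matched in the RefSeq promoter table of build GRCm38.p6, which holds 250 bases before and 50 bases after each gene start. TGATGNAA, the core of the C/EBP-ATF response element, was found in *Asns*, *Got1* and *Pycr1*, once each, and is held by 3.97% of the 32851 windows in the table. CACGTG, the E-box, was found in *Aldh18a1* alone among the 8 and is held by 7.15% of all windows. ATCAAAG, the TCF/LEF motif, was found in none of the 8 and is held by 3.73% of all windows. No matches of different motifs overlapped. In *Asns* the match begins 23 bases before the gene start, at chr6:7693225-7693232 on the minus strand, within an exon of a longer *Asns* transcript in the GENCODE M21 annotation. In *Got1* it begins 102 bases before the start, at chr19:43524700-43524707, and reads against the gene. In *Pycr1* it begins 103 bases before the start, at chr11:120643844-120643851. Both lie outside any gene of the basic GENCODE M21 annotation, as does the E-box of *Aldh18a1* at chr19:40588517-40588522, 59 bases before its start. A match describes the letters of the window only.

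*Gpt2*, which also fell, holds none of the 3 motifs in its window, and neither do *Glul*, *Glud1* and *Got2*. The windows of the 4 genes with a match are shown so that the matches can be read in place, each 5′ to 3′ along the gene, with the matched motif in capitals. All 4 lie on the minus strand of GRCm38.p6, at chr6:7693160-7693459 for *Asns*, chr19:43524556-43524855 for *Got1*, chr11:120643699-120643998 for *Pycr1* and chr19:40588414-40588713 for *Aldh18a1*.
Asns: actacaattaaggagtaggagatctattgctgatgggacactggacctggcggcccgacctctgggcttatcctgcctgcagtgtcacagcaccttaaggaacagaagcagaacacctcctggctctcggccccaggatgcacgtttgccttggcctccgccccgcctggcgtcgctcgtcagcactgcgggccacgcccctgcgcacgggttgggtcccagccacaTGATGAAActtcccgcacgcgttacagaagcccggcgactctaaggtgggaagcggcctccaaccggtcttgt
Got1: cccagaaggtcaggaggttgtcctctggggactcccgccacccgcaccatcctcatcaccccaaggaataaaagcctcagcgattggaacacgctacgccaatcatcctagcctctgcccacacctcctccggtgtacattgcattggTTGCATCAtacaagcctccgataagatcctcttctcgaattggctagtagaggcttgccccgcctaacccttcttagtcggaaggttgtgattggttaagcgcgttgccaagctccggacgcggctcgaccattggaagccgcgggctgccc
Pycr1: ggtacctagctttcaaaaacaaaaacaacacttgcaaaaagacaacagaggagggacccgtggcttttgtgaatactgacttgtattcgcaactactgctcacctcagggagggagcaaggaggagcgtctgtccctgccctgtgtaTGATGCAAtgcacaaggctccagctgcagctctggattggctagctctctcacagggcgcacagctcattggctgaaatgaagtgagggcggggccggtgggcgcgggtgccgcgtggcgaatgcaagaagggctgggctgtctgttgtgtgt
Aldh18a1: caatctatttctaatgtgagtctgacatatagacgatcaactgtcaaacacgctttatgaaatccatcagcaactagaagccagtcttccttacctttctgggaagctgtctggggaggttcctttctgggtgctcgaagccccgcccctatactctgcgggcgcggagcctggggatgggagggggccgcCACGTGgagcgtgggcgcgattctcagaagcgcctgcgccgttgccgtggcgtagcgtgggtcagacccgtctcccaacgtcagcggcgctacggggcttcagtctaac

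The genes whose pattern was nearest to that of *Asns* were found over 3 values, the log2 change in each MAPK13-IN-1 count library against the DMSO mean and the log2 ratio of the replicate 1 pair, among 9489 genes with at least 10 CPM in the mean of either group. They were *Chchd10*, *Phyhd1* and *Slc7a5*, at Euclidean distances of 0.203, 0.464 and 0.480. *Slc7a5*, which encodes a carrier of large neutral amino acids, had a log2 fold change of −2.19 and went from 142 to 41.5 FPKM in the replicate 1 pair. *Chchd10* went from 104 to 23.2 FPKM and *Phyhd1* from 25.9 to 6.82 FPKM. Nearest to *Glul* were *Clcn5*, *Abhd14b* and *Fam168a*, at distances of 0.0476, 0.0531 and 0.0555.

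The 8 genes lie on 6 chromosomes of GRCm38 in the GENCODE M21 annotation and are all protein-coding. *Glul* is at chr1:153899944-153909723 on the plus strand, where *Teddm2*, on the minus strand, overlaps it with at most 2 counts in any count library. *Mir8114* overlaps *Glul* on the same strand, the pseudogene *Gm15801* overlaps *Aldh18a1* on the same strand, and *Gm45760* overlaps *Got2* on the opposite strand, and none of these 3 names is in the count table. *Glud1* (chr14:34310727-34345265) and *Gpt2* (chr8:85492576-85527560) are on the plus strand. *Asns* (chr6:7675169-7693254), *Got1* (chr19:43499752-43524605), *Got2* (chr8:95864134-95888547), *Pycr1* (chr11:120635712-120643769) and *Aldh18a1* (chr19:40550257-40588463) are on the minus strand. Processed pseudogenes share sequence with some of them. Of all runs of 50 bases in the annotated transcripts, *Got2* shares 16.8% with *Got2-ps1*, *Glul* 9.46% with *Glns-ps1* and *Glud1* 3.40% with *Glud-ps*, and no counts under those names were used here. Reads of these 3 genes could have been split or discarded in counting, which was not tested. *Gpt2* and *Pycr1* share at most 1.06% with any other gene, and *Asns*, *Got1* and *Aldh18a1* share no such run with a gene of another name.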

How the data were processed

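RNA-seq of 3 DMSO and 3 MAPK13-IN-1 libraries was used. For replicates 2 and 3 the authors deposited raw counts per gene symbol, without normalization. Their processing notes name fastp 0.21.0, HISAT2 2.1.0, StringTie 2.1.5, DESeq2 1.30.1 and mm10, and the counting program and its strand setting are not given in the sources used here. For replicate 1 the authors deposited 1 value per gene and library, read here as FPKM, a unit inferred from values that are not whole and sum to 405150 and 390729. FastQC, HISAT2 and GRCm38 are named for it. Its depth is unknown, so it entered no test.

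The count table was fitted with edgeR 4.0.16 (R 4.3.3). filterByExpr (minimum count 10, minimum total 15) left 16269 genes. Libraries were scaled by TMM (factors 0.960 and 0.955 for DMSO, 1.05 and 1.04 for MAPK13-IN-1) and compared by the quasi-likelihood test without covariates, with Benjamini-Hochberg adjustment over all genes tested. The script was tested on simulated counts. The common biological coefficient of variation was 0.0659. Replicates differed by more than sampling noise for many genes (the mean chi-square was 2.98 in DMSO and 9.65 with MAPK13-IN-1, and the medians were 1.02 and 2.16), so none was treated as a copy.

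Log2 ratios of FPKM used a pseudocount of 1, or 0.1 as an alternative. Levels per kilobase used the union of exons in the basic GENCODE M21 annotation. Ratios, permutation tests, motifs and figures were made in Python 3.11.15 with scipy 1.17.1. The enzymes and the lists were chosen with earlier results of these data known. Named were the 8 enzymes, called list genes (adjusted p-value under 0.05) that moved by more than 1 on the log2 scale, 12 further list genes whatever their values (2 of them are not reported here), and the 3 genes nearest to *Asns* and to *Glul*. Alternatives tried were scaling by library totals, by RLE and by the upper quartile, no filter, at least 10 counts in every library, DESeq2 1.42.0, a replicate block, a stricter call rule and each library left out in turn.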

Additional observations from a re-analysis of the deposited data

How the results depend on the processing

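The fall of *Asns*, *Got1*, *Gpt2*, *Pycr1* and *Aldh18a1* and the rise of *Glul* kept their direction and remained called in the 11 alternatives that refit the counts. Under the stricter call rule, which also asks for an absolute log2 fold change over 1, *Glul* and *Glud1* drop out and 5 of the 8 enzymes are called. The deepest, *Pycr1*, ranged from −3.82 to −3.59. Of the 8 enzymes, 8 were called with libraries scaled by totals, where *Got2* passed at 0.15, and 6 without DMSO replicate 2. With 1 library each left out, *Glud1* ranged from 0.20 to 0.28 and *Got2* from −0.0155 to 0.0546. A group left with 1 library is assumed to vary like the other. Genes called numbered 10374, and 3799 under the stricter rule. With the replicate number as a block 10645 genes were called and all 7 enzymes remained. The numbers do not pair the libraries, whose deviations had a correlation of 0.005 between the same numbers, and with 2 pairs no more can be said. Under the block *Slc38a2* turned to −0.000294 and *Asrgl1*, at −0.25, was called. List counts moved as follows. Genes lower among glutamine amidotransferases were 5, a number that no refit gave again. They were 3 with library totals and with DESeq2, and 4 in the other refits of all 4 count libraries. The number also moved with 1 library left out. Genes lower in proline and ornithine metabolism were 4, but 3 with library totals and 5 with no filter and with the replicate block. Genes higher in this list were 1, but 2 with upper-quartile normalization, with no filter and with at least 10 counts in every library. With library totals 3 were higher. Both numbers moved with 1 library left out. Carriers lower were 5, but 3 with library totals, and carriers higher were 4, but 2 to 4 with 1 library left out. Shuttle genes higher were 0 to 1 with 1 library left out. *Prodh*, not called in any alternative, turned to 0.0447 with upper-quartile normalization, 0.0896 with library totals and 0.00944 with at least 10 counts in every library, and ranged from −0.32 to 0.20 with 1 library left out. *Slc38a2* ranged from −0.101 to 0.0933 in the same way. Of the 30 list genes that the naming rule takes outside the 8 enzymes, 24 kept direction and call in each refit that gave them a value, 10 refits for *Nat8l*, which fails the filter of at least 10 counts in every library, and 11 for the others. The cause of these shifts was not tested. Depth limits genes of few counts such as *Nat8l*, *Nags* and *Slc1a1*.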

Other observations

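Among the 8 enzymes and the related lists, 59 genes were called in the count libraries and had at least 1 FPKM in both libraries of the replicate 1 pair, and 14 of them had the opposite direction in that pair. Over all genes at this level, 59.3% of those called lower and 72.4% of those called higher kept their direction there, so such reversals are not particular to these lists. *Myc* and *Slc25a11*, given in the report, are among them. The widest gap, chosen after the values were seen, was in *Ass1*, which joins citrulline and aspartate. It was lower in the count libraries, from 99.1 ± 0.178 to 57.1 ± 3.87 CPM (SD, n = 2), and higher in the pair, at 39.5 FPKM with DMSO and 96.5 FPKM with MAPK13-IN-1. *Odc1*, which makes putrescine from ornithine and was also chosen after its values were seen, went from 270 ± 2.91 to 154 ± 12.3 CPM (SD, n = 2) in the count libraries and stood at 142 and 228 FPKM in the pair. The pair differs from the count libraries in library kit, in unit and in its level of B cell markers, and whether its direction differs from theirs beyond the error of a single library was not tested.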
